A study of Mus musculus with 18 samples.

Results

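Of the proton-coupled oligopeptide transporters of the SLC15 family and the cytosolic peptidoglycan sensors of the NOD pair, 5 genes had a row in the table: Slc15a2 (gene ID 57738), Slc15a3 (65221), Slc15a4 (100561), Nod1 (107607) and Nod2 (257632). They were picked by symbol from 16614 genes, and all 5 were among the 11989 genes that passed the filter on low counts. Slc15a2 was singled out because earlier results had it higher in KO cells both with and without LPS, so the genotype values of these genes are given as a description and carry no test. The response to LPS played no part in that choice and was tested.

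The 18 libraries came from mouse dendritic cells grown out of bone marrow for 7 to 10 days, with 2 cytokines, Flt3L at 100 ng/ml and GM-CSF at 20 ng/ml. Cells were selected on the chemokine receptor Xcr1, either by flow sorting together with CD11c or by antibody and beads, and the labels do not say which was done for a given sample. The groups were WT control (n = 4), KO control (n = 4), WT LPS (n = 5) and KO LPS (n = 5). LPS, lipopolysaccharide, comes from bacterial outer membranes and is sensed by Toll-like receptor 4. Neither its dose nor its time is in the labels, nor are the name of the deleted gene and the strain or age of the mice, and the series title names STAT5 and STAT3 as its subject. They do not state that replicates are separate cultures or animals, so the p-values measure the spread between samples, which may be technical.

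SLC15 proteins carry short peptides across membranes together with protons. Slc15a2 encodes PepT2, a high-affinity di- and tripeptide carrier of the plasma membrane that also takes up bacterial muramyl peptides. Slc15a3 and Slc15a4 encode PHT2 and PHT1, which sit in endolysosomes, move histidine and small peptides out of that compartment and can pass muramyl dipeptide to the cytosol. Slc15a4 also anchors the adaptor TASL, through which endosomal Toll-like receptors activate IRF5. Nod1 senses peptidoglycan fragments that hold diaminopimelic acid, Nod2 senses muramyl dipeptide, and both signal through the kinase RIPK2 to NF-kappaB and MAP kinases.

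Promoter sequences were at hand for 4 of the 5 genes in RefSeq (build GRCm38.p6, 250 bases before to 50 after the start). They are shown for the gene that differed most between genotypes (Slc15a2), the gene with the smallest LPS response (Slc15a4) and the gene with the largest (Nod1, the second of its start entries). Each window was searched on both strands for the STAT motif TTCNNNGAA, the interferon response core GAAANNGAA and the NF-kappaB consensus. A match to one of the first 2 can overlap a match to the other. Capitals mark the match, and a sequence without capitals holds none of these letters in this window.
Slc15a2 chr16:36784913-36785212 (minus strand): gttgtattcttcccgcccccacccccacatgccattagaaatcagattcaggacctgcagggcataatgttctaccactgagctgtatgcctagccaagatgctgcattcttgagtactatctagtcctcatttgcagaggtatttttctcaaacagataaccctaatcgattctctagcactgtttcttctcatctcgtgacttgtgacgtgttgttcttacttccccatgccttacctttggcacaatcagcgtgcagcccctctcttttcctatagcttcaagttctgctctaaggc
Slc15a4 chr5:127617343-127617642 (minus strand): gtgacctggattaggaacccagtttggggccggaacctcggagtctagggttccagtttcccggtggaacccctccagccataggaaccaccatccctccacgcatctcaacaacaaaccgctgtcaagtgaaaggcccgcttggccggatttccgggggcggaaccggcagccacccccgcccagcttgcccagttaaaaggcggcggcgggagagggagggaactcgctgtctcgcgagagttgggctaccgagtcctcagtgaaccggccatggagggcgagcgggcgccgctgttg
Nod1 chr6:54971612-54971911 (minus strand): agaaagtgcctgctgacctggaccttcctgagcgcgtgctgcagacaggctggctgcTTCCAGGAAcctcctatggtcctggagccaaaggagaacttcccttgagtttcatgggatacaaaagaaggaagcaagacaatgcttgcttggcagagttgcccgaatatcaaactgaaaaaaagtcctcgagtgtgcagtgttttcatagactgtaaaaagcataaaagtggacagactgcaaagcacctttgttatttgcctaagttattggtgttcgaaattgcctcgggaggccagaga
The single match was TTCCAGGAA in the Nod1 window, at position -193 from the start. Among 32851 promoter windows of the same length, 8.3% held the STAT motif, 8.56% the interferon core and 8.46% the NF-kappaB consensus. The Slc15a2 window had 46.3% G or C bases and 5 CpG sites, and the Slc15a4 window 64.0% and 23, beside medians of 52.7% and 7 over all windows. The other Nod1 start (chr6:54972563-54972862) and Nod2 (chr8:88647097-88647396) held no match. These are matches of letters and were not tested as binding sites.

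Slc15a2, the plasma membrane carrier, was scarce in WT cells without LPS and was highest in KO cells with LPS. Levels between libraries are given as CPM, a gene's share of the library total scaled with TMM factors. WT control libraries read 0.599, 0.742, 0.639 and 0.771 CPM (mean 0.688 ± 0.0820 SD, n = 4), on 22 to 28 estimated counts each. KO control libraries read 3.10, 3.65, 2.78 and 3.72 CPM (3.31 ± 0.452, n = 4; 99 to 135 counts). Every KO library lay above every WT library, so the control groups did not overlap. With LPS, WT libraries read 9.18, 13.4, 9.64, 9.63 and 11.4 CPM (10.6 ± 1.74, n = 5). KO LPS libraries read 40.7, 75.3, 39.4, 43.3 and 53.7 CPM (50.5 ± 15.0, n = 5). The groups were again apart, and replicate 2 was the highest library in each genotype. In these bulk samples, a lower share of expressing cells and less RNA per cell cannot be told apart.

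The genotype difference of Slc15a2 was close to the same size with and without LPS. KO exceeded WT by 2.26 ± 0.27 on the log2 scale (SE, 4.79-fold) without LPS and by 2.25 ± 0.16 (4.75-fold) with LPS. The LPS response in KO minus that in WT was -0.01 ± 0.20. These values chose the gene and carry no test. Of 11989 genes, 6 had a higher log2 fold change in KO without LPS and 4 with LPS. Leaving out KO LPS replicate 2, the library at 75.3 CPM, gave a difference with LPS of 2.06 ± 0.11. On the length-scaled level with a pseudocount of 1, log2(TPM + 1), the differences were 1.07 and 1.94, since the pseudocount exceeds the WT control level.

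Slc15a3, one of the endolysosomal carriers, was at similar levels in both genotypes without LPS and was the most abundant of the 5 genes with it. WT control libraries read 20.6, 20.0, 19.4 and 25.7 CPM (21.4 ± 2.90, n = 4), and KO control libraries 24.8, 23.5, 25.5 and 24.3 CPM (24.5 ± 0.852, n = 4). The highest WT control library, replicate 4, lay above all KO control libraries, so the groups overlapped. With LPS, WT libraries read 225, 245, 166, 185 and 218 CPM (208 ± 31.9, n = 5). KO LPS libraries read 326, 279, 242, 292 and 296 CPM (287 ± 30.4, n = 5). The overlap there came from WT replicate 2 and KO replicate 3 only. KO minus WT was 0.19 ± 0.11 (log2, SE) without LPS and 0.47 ± 0.10 with LPS.

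Slc15a4, the endolysosomal carrier that anchors TASL, varied least. WT control libraries read 44.1, 50.5, 44.9 and 46.3 CPM (46.4 ± 2.85, n = 4), and KO control libraries 41.3, 46.9, 44.7 and 43.0 CPM (44.0 ± 2.39, n = 4). With LPS, WT libraries read 82.5, 86.3, 88.8, 85.1 and 91.5 CPM (86.8 ± 3.46, n = 5). KO LPS libraries read 91.4, 75.7, 89.9, 92.8 and 89.5 CPM (87.9 ± 6.91, n = 5), with replicate 2 as the lowest. The genotypes overlapped in both treatments. KO minus WT was -0.08 ± 0.06 without LPS and 0.02 ± 0.06 with LPS, and the latter was -0.07 when libraries were scaled to their total counts.

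Nod1, the sensor of diaminopimelic acid, was low without LPS. WT control libraries read 0.599, 0.495, 0.389 and 0.744 CPM (0.557 ± 0.151, n = 4; 14 to 27 counts), and KO control libraries 1.10, 0.674, 0.673 and 0.826 CPM (mean 0.818 ± 0.200, n = 4; 24 to 39 counts). With LPS, WT libraries read 15.1, 26.5, 15.8, 15.8 and 19.0 CPM (18.5 ± 4.76, n = 5). KO LPS libraries read 21.6, 27.9, 20.5, 19.5 and 23.3 CPM (22.6 ± 3.31, n = 5). Replicate 2 was again the highest library of each genotype, and the genotypes overlapped in both treatments. KO minus WT was 0.55 ± 0.31 without LPS and 0.29 ± 0.14 with LPS, and the latter was 0.46 without WT LPS replicate 2 and 0.21 without KO LPS replicate 2.

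Nod2, the sensor of muramyl dipeptide, was detected well in all groups. WT control libraries read 7.13, 8.49, 9.03 and 10.6 CPM (8.80 ± 1.41, n = 4), and KO control libraries 10.3, 10.3, 11.2 and 9.36 CPM (10.3 ± 0.747, n = 4). With LPS, WT libraries read 37.8, 39.8, 43.0, 42.4 and 43.2 CPM (41.3 ± 2.37, n = 5). KO LPS libraries read 47.4, 42.9, 59.1, 53.4 and 50.5 CPM (50.7 ± 6.13, n = 5). Only KO replicate 2 lay within the WT range with LPS. KO minus WT was 0.23 ± 0.11 without LPS and 0.30 ± 0.09 with LPS.

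**Figure D1:**
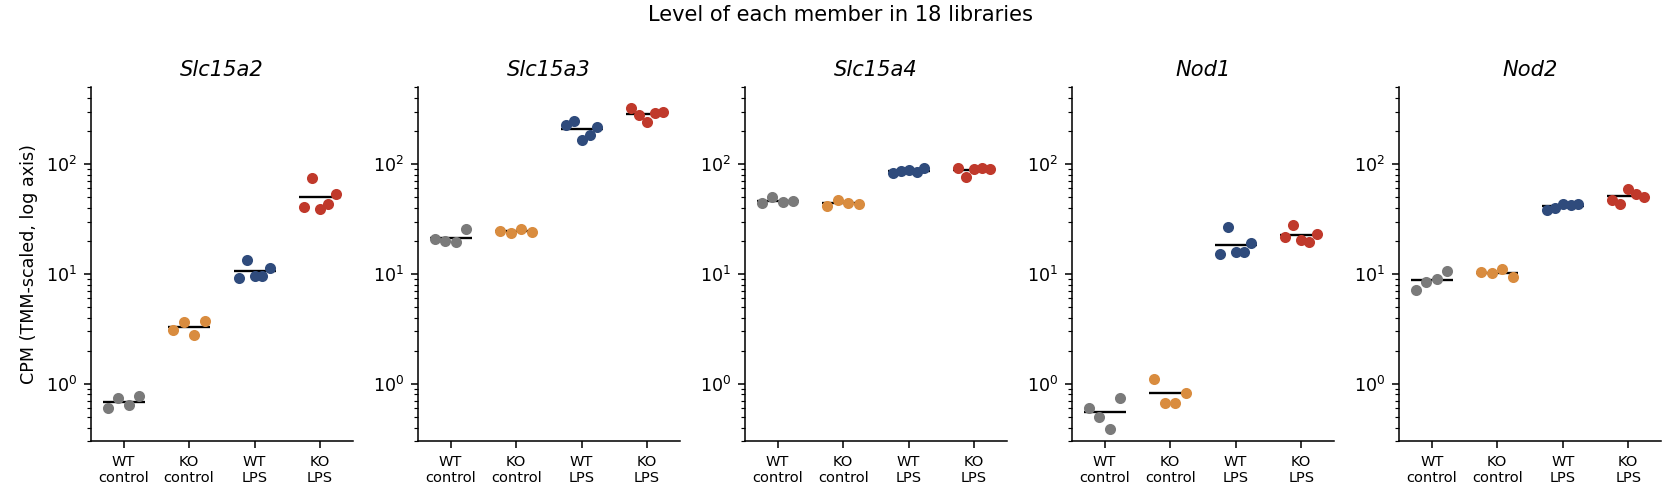
Level of each gene in CPM (TMM-scaled, log axis) in the 18 libraries, by group; each point is a library in order of replicate and the black line is the group mean. The 4 WT control libraries of Slc15a2 lie between 0.599 and 0.771 CPM and the 5 KO LPS libraries between 39.4 and 75.3 CPM, while Slc15a4 spans 41.3 to 92.8 CPM over all groups.

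Between genotypes, 1 of the 5 genes, Slc15a2, did not overlap in either treatment. Over all tested genes 14.7% did not overlap without LPS and 6.51% with LPS. Nothing is read from that count, because the same contrast chose the gene.

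The LPS comparison asks which of these transporters and sensors changed in stimulated cells. All 5 genes rose in both genotypes, and no LPS library overlapped a control library of its genotype. An increase past an adjusted p of 0.05 in edgeR's quasi-likelihood test was common, at 40.7% of tested genes in WT and 40% in KO, so a call alone is close to the background here. Higher levels without overlap were seen for 36.6% of genes in WT and 37.8% in KO. Exact permutation tests (two-sided, 10 tests) gave p = 0.007937 for every gene in each genotype, before and after Benjamini-Hochberg adjustment, the smallest value that groups of 4 and 5 can give.

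Nod1 had the largest response and Slc15a4 the smallest in both genotypes. In WT, Nod1 rose 32.8-fold (log2 fold change 5.04 ± 0.22 SE, edgeR adjusted p = 2.8e-14), and in KO 27.5-fold (4.78 ± 0.21, adjusted p = 2.1e-14). Of all tested genes, 236 had a larger log2 fold change in WT and 272 in KO. Slc15a2 rose 15.3-fold in WT (3.94 ± 0.24, edgeR adjusted p = 5.0e-12) and 15.2-fold in KO (3.93 ± 0.19, adjusted p = 8.8e-14). These 2 responses started from 0.688 CPM in WT and 3.31 CPM in KO, and the difference between them carries no test. Slc15a3 rose 9.68-fold in WT (3.27 ± 0.12, edgeR adjusted p = 1.3e-15) and 11.7-fold in KO (3.55 ± 0.12, adjusted p = 3.5e-16). Nod2 rose 4.69-fold in WT (2.23 ± 0.10, edgeR adjusted p = 6.8e-14) and 4.92-fold in KO (2.30 ± 0.10, adjusted p = 3.0e-14).

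Slc15a4 rose 1.87-fold in WT (0.90 ± 0.06, edgeR adjusted p = 3.5e-11) and 2.00-fold in KO (1.00 ± 0.06, adjusted p = 6.5e-12) with TMM scaling, and by only 0.16 (adjusted p = 0.027) and 0.22 (adjusted p = 0.0041) with total count scaling. LPS libraries had TMM factors of 0.7433 to 0.8497 and control libraries 1.316 to 1.372, so the choice of scaling shifts every gene. The median gene lay at -0.06 in WT and -0.10 in KO with TMM, and at -0.80 and -0.88 with total counts. Relative to that median, Slc15a4 lay 0.96 higher in WT and 1.10 higher in KO under either scaling. Its percentile among all genes was 78.8 in WT and 79.9 in KO, against 96.6 and 96.5 for Slc15a2. For the other 4 genes, the total count values stayed between 1.48 and 4.28.

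**Figure D2:**
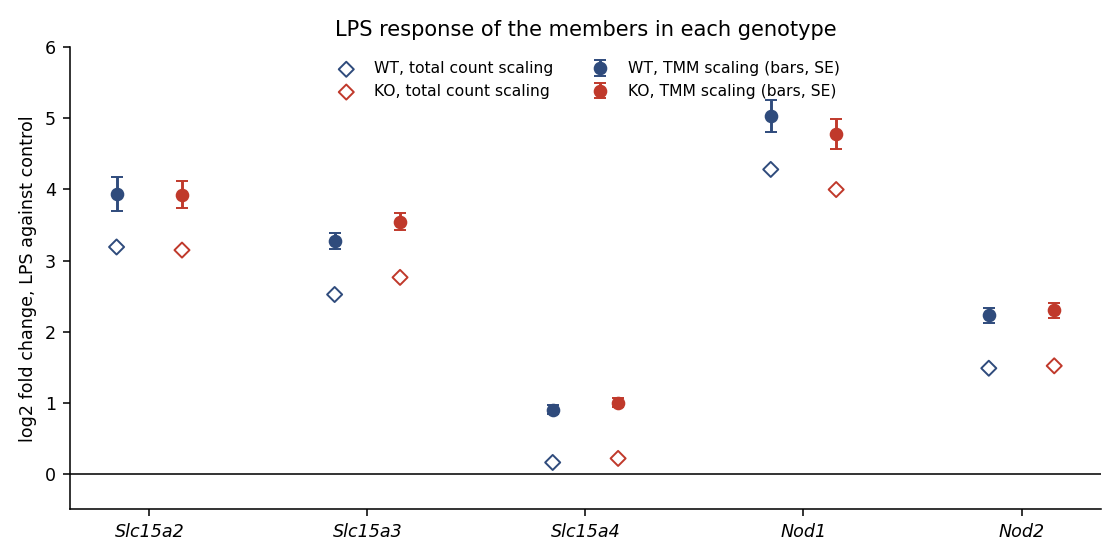
Log2 fold change of each gene with LPS against control in WT (blue) and KO (red); filled points with SE bars use TMM scaling and open diamonds use total count scaling. Nod1 lies highest in both genotypes (5.04 in WT), and the open diamonds of Slc15a4 lie at 0.16 and 0.22.

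The difference between genotypes in the LPS response was described only, since it is built from the contrasts that chose the genes. KO minus WT was 0.27 ± 0.15 for Slc15a3, 0.10 ± 0.09 for Slc15a4, -0.26 ± 0.34 for Nod1 and 0.07 ± 0.14 for Nod2 (log2, SE). These 4 values carry no test, and neither a difference nor its absence is read from them.

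Between genes, levels were compared in the deposited TPM values, which are scaled by transcript length. In WT control cells Slc15a4 led with 32.7 ± 1.93 TPM (SD, n = 4), ahead of Slc15a3 with 21.4, Nod2 with 4.19, Slc15a2 with 0.463 and Nod1 with 0.288 TPM. Slc15a2 and Nod1, the lowest pair, overlapped between libraries, and the other neighbours did not. In KO control cells the order was the same, with Slc15a2 at 2.09 ± 0.250 TPM, and no neighbours overlapped.

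With LPS the order changed in both genotypes. In WT LPS cells Slc15a3 led with 124 ± 13.1 TPM (n = 5), ahead of Slc15a4 with 36.6, Nod2 with 11.9, Nod1 with 5.62 and Slc15a2 with 4.32 TPM. Nod1 and Slc15a2 overlapped between libraries, although Nod1 was the higher in 5 of 5. In KO LPS cells Slc15a3 stood at 167 ± 14.7 TPM, Slc15a4 at 35.3, Slc15a2 at 20.0 ± 6.07, Nod2 at 14.1 and Nod1 at 6.70 TPM. Slc15a2, last in WT LPS cells, thus took the third place there, above Nod2 in 4 of 5 libraries with overlapping ranges.

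The make-up of the transporter set moved with both factors. Slc15a2 held 0.844% ± 0.0695 (SD) of the summed TPM of the 3 transporters in WT control cells and 3.90% ± 0.520 in KO control cells. With LPS it held 2.62% ± 0.290 in WT and 9.00% ± 2.62 in KO. The last value ranged from 6.61% to 13.4% between libraries. Slc15a3 held 39.1%, 41.9%, 75.1% and 75.0% in the same order, and Slc15a4 60.0%, 54.2%, 22.3% and 16.0%. Slc15a4 therefore gave way to Slc15a3 as the main endolysosomal carrier transcript with LPS in both genotypes. Among the sensors, Nod2 exceeded Nod1 15.2-fold ± 4.51 in WT control and 12.0-fold ± 2.88 in KO control. With LPS that ratio was 2.20 ± 0.478 in WT and 2.16 ± 0.505 in KO.

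**Figure D3:**
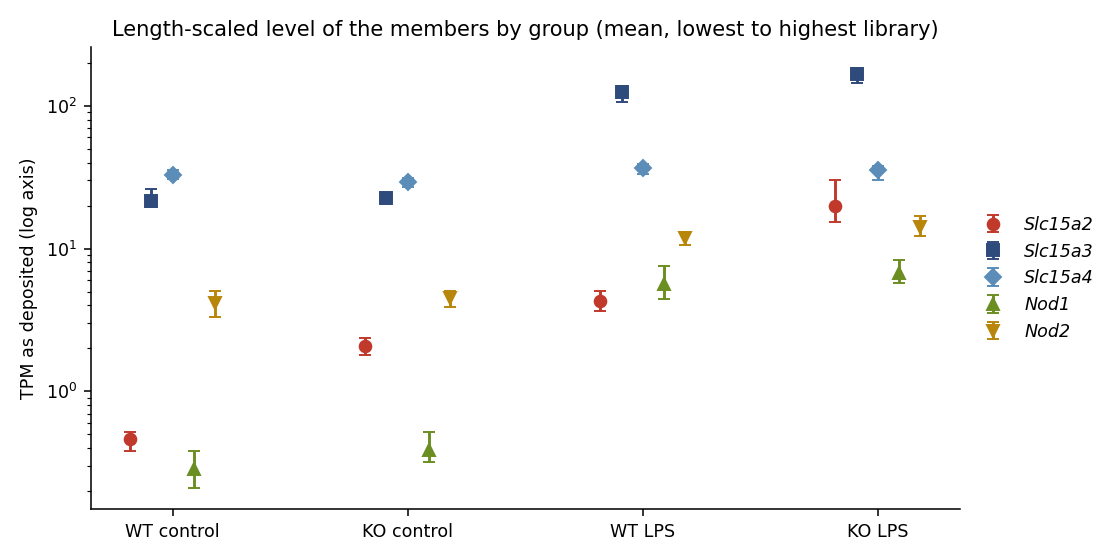
Deposited TPM (log axis) of the 5 genes in each group; points are group means and bars run from the lowest to the highest library. Slc15a3 reads 124 and 167 TPM with LPS, above all other members, and Slc15a2 climbs from 0.463 TPM in WT control to 20.0 TPM in KO LPS.

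The labels number the libraries, and each run of 4 adjacent numbers holds WT LPS, WT control, KO LPS and KO control in the same order, except the second, which has WT LPS and KO LPS only. What the numbers stand for is not stated. Within these runs, the KO to WT ratio of Slc15a2 was 4.35 to 5.17 in the 4 runs without LPS. With LPS it was 4.09 to 5.63 in the 5 runs, the highest in the second run. Its groups did not overlap, so ratios above 1 were fixed in advance and only their size is described. Its LPS to control ratio was 13.0 to 15.3 in WT and 10.8 to 15.6 in KO. For Slc15a3 the KO to WT ratio with LPS was 1.14 to 1.58, above 1 in 5 of 5 runs, and for Slc15a4 it was 0.878 to 1.11, above 1 in 3 of 5. Nod1 had ratios of 1.05 to 1.43 and Nod2 of 1.08 to 1.37 with LPS, above 1 in 5 of 5 runs each. These tallies restate the genotype contrast, carry no test, and nothing is read from them. Without LPS the 4 genes other than Slc15a2 ranged from 0.888 (Nod2) to 1.83 (Nod1).

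**Figure D4:**
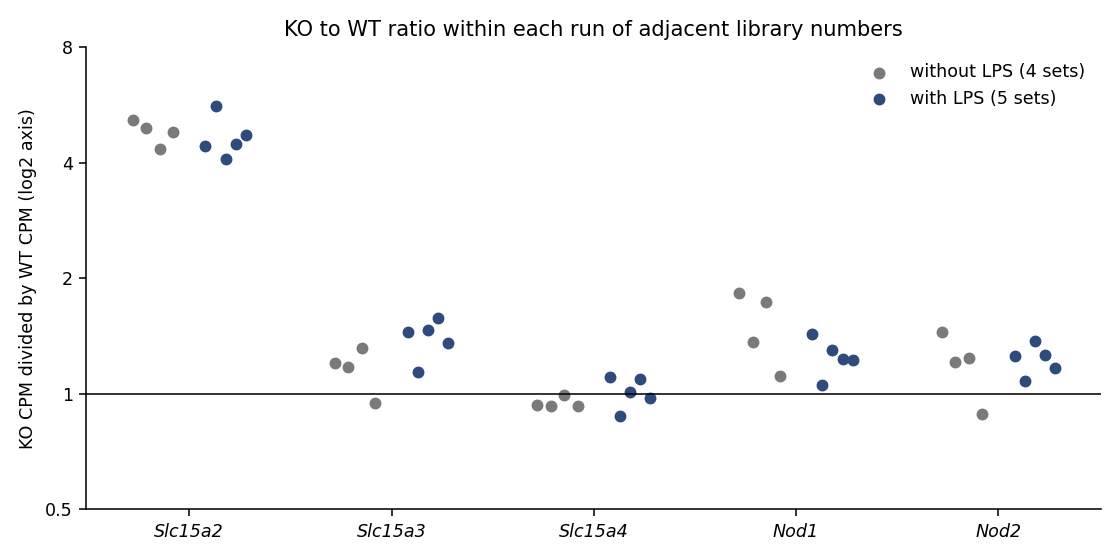
KO CPM divided by WT CPM (log2 axis) for each gene within each run of adjacent library numbers, without LPS (grey, 4 runs) and with LPS (blue, 5 runs); the line marks a ratio of 1. Slc15a2 lies between 4.09 and 5.63 throughout, and Slc15a4 lies on both sides of 1 with LPS.

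Genes most like each member were found by the root mean square (RMS) difference of centred log2 CPM over the 18 libraries. This measure includes the genotype contrast and carries no test. The nearest genes to Slc15a2 lay farther off than those of the other members. They were Apol9a, St3gal6, Stk39, Ppm1e and Ms4a14 at 0.80 to 0.88, beside a median of 2.26 over all genes, and Apol9a and Ppm1e were themselves low (1.24 and 2.86 CPM in KO LPS). Slc15a3 lay nearest to Icosl, Swap70, Ehd1, Irf1 and Cyria, at 0.11 to 0.14. Slc15a4 lay nearest to Ptpn6, Zbtb42, Samd4b, Tspan33 and Atp8b2, at 0.069 to 0.082. Nod1 lay nearest to Il2rg, Igtp, Irgm1, Pakap and Ube2l6, at 0.19 to 0.24. Nod2 lay nearest to Sema4f, Asb13, Camkk2, Sh3bp2 and Zbtb21, at 0.13 to 0.15. The lists depend on the measure, since over the 4 group means 4 of 5 remained for Slc15a2, 2 of 5 for Slc15a3 and 1 of 5 for each of the others.

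The genes next to Slc15a2 on the chromosome gave no call in the same direction. Neighbours were taken as the 5 nearest tested genes on each side in RefSeq order, a choice made after values had been seen. In edgeR, 0 of the 10 were called between genotypes without LPS, with 3 at an unadjusted p under 0.05 and log2 fold changes from -0.44 to 0.24. The highest was Ildr1, the adjacent gene on one side, at 3.51 CPM in WT and 4.15 CPM in KO without overlap. Its edgeR p was 0.029 unadjusted and 0.28 adjusted, and with LPS it stood at -0.09 with overlap. Stfa2 and Polq, the others under 0.05, were lower in KO. Of all tested genes, 1.89% were called higher and 0.525% lower without LPS, so a count of 0 is near the background. A further measure, no overlap without LPS, held for 14.7% of them. With LPS, 3 of 10 were lower in KO and the highest value was 0.01. Of all tested genes, 5.5% were called lower and 5.3% higher there. Casr, the calcium-sensing receptor, fell from 8.45 to 2.97 CPM (-1.51 ± 0.21). Eaf2, an elongation factor partner and the adjacent gene on the other side, fell from 3.48 to 2.31 CPM (-0.59 ± 0.14). Stfa2, a stefin of a family of near-identical copies whose counts are uncertain, fell from 71.8 to 53.0 CPM, a call that did not hold in 15 of 28 alternatives (log2 fold change -0.36, adjusted p = 0.14 without WT LPS replicate 1).

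Signalling below the sensors was followed in 24 listed genes of the NOD1 and NOD2 pathway. With LPS, 18 rose and 5 fell in WT (median log2 fold change 0.61, all genes -0.06), and 17 rose and 5 fell in KO (0.80, all genes -0.10). Of all tested genes 44.7% fell in WT and 46.2% in KO, beside the shares that rose given above. Total count scaling gave 9 and 12 in WT and 10 and 10 in KO, and over all called genes it cut the share that rose from 47.7% to 22.1% in WT and from 46.4% to 22.3% in KO. Tnfaip3, the ubiquitin editor A20 that restrains NF-kappaB, rose in WT from 18.8 to 524 CPM (4.80 ± 0.13). Birc3, the ubiquitin ligase cIAP2, rose from 77.0 to 811 CPM (3.40 ± 0.10). Ripk2, the kinase shared by both sensors, rose from 10.3 to 70.8 CPM (2.78 ± 0.12). All 3 rose in KO as well.

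Between genotypes, edgeR called 0 of these 24 genes without LPS, as did DESeq2 and limma-voom, and the number at an unadjusted p under 0.05 was 0 too. Of all tested genes, 1.89% were called higher and 0.525% lower there. With LPS, 3 were higher and 1 was lower in KO, beside 5.3% and 5.5% of all tested genes. Ripk2 stood at 70.8 CPM in WT and 94.8 CPM in KO (0.42 ± 0.10, edgeR adjusted p = 0.012). Xiap, the ligase that ubiquitinates RIPK2, was 0.21 ± 0.06 higher (adjusted p = 0.021). Ikbkb, a kinase subunit that releases NF-kappaB, fell from 122 to 107 CPM (-0.19 ± 0.04, adjusted p = 0.0036). Arhgef2, a microtubule-bound exchange factor named after its values were seen, was 0.15 higher (adjusted p = 0.034).

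These counts moved with single libraries. Without WT LPS replicate 2, 11 were higher and 4 lower, without WT LPS replicate 1 or KO LPS replicate 1 only 1 was higher, and with only the groups compared in the fit 0 were. Total count scaling left 1 higher and 3 lower, and over all called genes it cut the share higher in KO with LPS from 49.1% to 23%. The call of Xiap ended in 5 of 28 alternatives, without WT LPS replicate 1 (adjusted p = 0.056) or KO LPS replicate 1 (0.057), with only the groups compared (0.074), with total count scaling (0.13 on the log2 scale, 0.092) and on log2(TPM + 1) (0.17). That of Arhgef2 ended in 10 of 28 alternatives, among them without WT LPS replicates 1 or 4 or KO LPS replicates 1, 4 or 5 (up to 0.10). Ikbkb was called in all 28 alternatives, and Ripk2 in all but the fit of only the groups compared (0.082). The interaction, called for 3.82% of all tested genes, was called for 0 of 24 in edgeR and limma-voom, with 5 at an unadjusted p under 0.05, while DESeq2 called 3 and edgeR called 5 without WT LPS replicate 2.

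Partners of Slc15a4 and the endosomal Toll-like receptor route made a list of 19. In both genotypes 14 rose and 5 fell with LPS (medians 0.80 in WT and 0.86 in KO), and with total count scaling 9 rose in WT and 8 in KO. Of all tested genes, 40.7% rose and 44.7% fell in WT, and 40% and 46.2% in KO. In WT, Irf7, a transcription factor of interferon induction, went from 9.51 to 2623 CPM (8.11 ± 0.19). Myd88, an adaptor of Toll-like receptors, went from 60.9 to 497 CPM (3.03 ± 0.05). Tlr9, a receptor for unmethylated CpG DNA, went from 78.0 to 612 CPM (2.97 ± 0.11).

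Without LPS, Irf7 was the 1 gene of 19 called between genotypes (2 without WT LPS replicate 2), at 9.51 CPM in WT and 24.3 CPM in KO. Calls higher in KO made up 1.89% of all tested genes there, and calls lower 0.525%. With LPS, 3 were higher and 1 lower in KO, beside 5.3% and 5.5% of all tested genes. Irak4, the kinase that binds MYD88, fell from 34.1 to 22.9 CPM (-0.57 ± 0.05, edgeR adjusted p = 5.2e-07) without overlap. Irf5, the factor activated through TASL, rose from 831 to 1002 CPM (0.27 ± 0.05, adjusted p = 0.0017), also without overlap. Tlr9 rose from 612 to 751 CPM (0.30 ± 0.09, adjusted p = 0.049). Ap3b1, an adaptor subunit for sorting to lysosomes and named after its values were seen, differed by 0.15. The calls of Irak4 and Irf5 held in all 28 alternatives, that of Tlr9 was lost in 18 and that of Ap3b1 in 11. Without WT LPS replicates 1, 3 or 4 or KO LPS replicates 1, 4 or 5, the count of genes higher was 1. For Tlr9 the adjusted p reached 0.14 without KO LPS replicate 1, and for Ap3b1 0.10 without KO LPS replicate 5.

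Other genes of the NLR family, to which both sensors belong, were tested for 13 of 16 listed. With LPS, 5 rose and 6 fell in WT and 6 rose and 6 fell in KO (medians -0.37 and -0.39), and with total count scaling 1 rose in each genotype. Of all tested genes, 40.7% rose and 44.7% fell in WT, and 40% and 46.2% in KO. Nlrc5, the transactivator of MHC class I genes, rose from 60.0 to 989 CPM in WT (4.04 ± 0.12). Nlrc4, an inflammasome sensor, was 1.01 ± 0.13 higher in WT with TMM and 0.27 (adjusted p = 0.083) with total counts. Nlrp1a, another inflammasome sensor, fell from 12.5 to 6.35 CPM (-0.98 ± 0.11).

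Between genotypes without LPS, edgeR called 0 of these 13, beside 1.89% of all tested genes higher and 0.525% lower. DESeq2 and limma-voom called 0 too, and 3 were at an unadjusted edgeR p under 0.05. Without KO control replicate 4, 1 was called. With LPS, 2 were higher in KO, beside 5.3% of all tested genes. Ciita, the transactivator of MHC class II genes, stood at 639 CPM in WT and 831 CPM in KO (0.38 ± 0.10, edgeR adjusted p = 0.018). Nlrc5 stood at 989 and 1267 CPM (0.36 ± 0.09, adjusted p = 0.017), without overlap. Both calls ended without WT LPS replicate 1 (adjusted p = 0.053 and 0.052) or KO LPS replicate 1 (0.063 and 0.054), and that of Ciita also without WT LPS replicate 4 (0.056), while 5 were higher without WT LPS replicate 2.

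Peptidases that release, trim or cleave peptides formed a list of 20. With LPS, 14 rose and 5 fell in WT and 12 rose and 5 fell in KO. Of all tested genes, 40.7% rose and 44.7% fell in WT, and 40% and 46.2% in KO. Total count scaling turned the counts to 5 and 15 in both. Over all called genes it cut the share that rose from 47.7% to 22.1% in WT and from 46.4% to 22.3% in KO. Lap3, a leucine aminopeptidase, rose from 25.9 to 168 CPM in WT (2.70 ± 0.10), and Ctsc, the dipeptidyl peptidase cathepsin C, from 86.7 to 352 CPM (2.02 ± 0.08). Npepps, a cytosolic aminopeptidase, rose by 1.71 ± 0.07.

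Pepd, which cleaves dipeptides that end in proline, was the peptidase called in KO in both treatments. Without LPS it rose from 52.3 to 69.3 CPM (0.40 ± 0.06, edgeR adjusted p = 4.5e-04) as the only 1 of 20, beside 1.89% of all tested genes called higher and 0.525% lower. With LPS, 2 were higher and 2 lower, beside 5.3% and 5.5% of all tested genes. Pepd stood at 61.9 and 73.3 CPM (0.24 ± 0.05, adjusted p = 0.0037). Anpep, the surface aminopeptidase CD13, fell from 195 to 149 CPM (-0.39 ± 0.07, adjusted p = 9.6e-04). Both held in all 28 alternatives. Dpp7, a lysosomal dipeptidyl peptidase, was 0.31 higher (adjusted p = 0.013), and not past the threshold in 3 alternatives. The fourth call was Lta4h, named after its values were seen, whose call ended in 9. Without WT LPS replicate 2, 4 were higher, and without WT LPS replicates 3 or 4 or KO LPS replicates 1 or 4, 1 was lower. Total count scaling gave 1 higher and 4 lower.

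Of 10 genes that handle peptidoglycan, 7 were tested. With LPS, 2 rose and 2 fell in WT and 2 rose and 3 fell in KO. Of all tested genes, 40.7% rose and 44.7% fell in WT, and 40% and 46.2% in KO. Total count scaling gave 5 that fell in each genotype, and DESeq2 gave 4 that rose in KO. Cd14, the co-receptor that hands LPS to its receptor, rose from 1.55 to 36.1 CPM in WT (4.54 ± 0.32). Between genotypes with LPS, Slc46a3, a lysosomal transporter, was higher, at 150 CPM in WT and 174 CPM in KO (0.22 ± 0.06, edgeR adjusted p = 0.013), and with total count scaling it did not pass (0.14, adjusted p = 0.19). Without LPS, 1 of 7 was called, beside 1.89% of all tested genes called higher and 0.525% lower. It was Pglyrp1, a peptidoglycan recognition protein named after its values were seen, at 2.85 CPM in WT and 4.85 CPM in KO. That call ended without any one of WT control replicates 1 to 3 or of the 4 KO control replicates (adjusted p up to 0.16), and without KO LPS replicates 4 or 5.

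**Figure D5:**
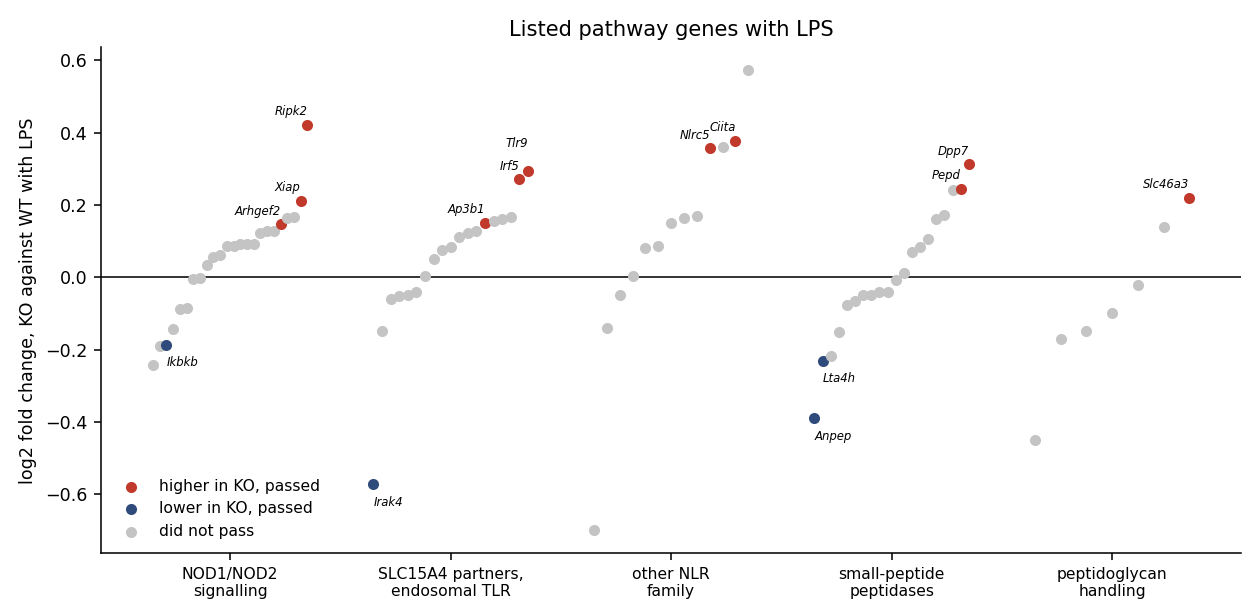
Log2 fold change in KO against WT with LPS for each tested gene of 5 pathway lists, in order within each list; red points passed the test as higher in KO, blue as lower, grey did not pass. Most points are grey, Irak4 (-0.57) is the lowest that passed and Ripk2 (0.42) the highest.

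Total counts ran from 25590104 to 27375189 per library, and replicates differed by more than counting error (chi-square per degree of freedom 2.69 to 74.76 over 32 pairs). Pairs with WT LPS replicate 2 gave 26.21 to 74.76, and the other WT LPS pairs 6.026 to 22.97. Without the libraries numbered 5 and 7, replicate 2 of WT LPS and of KO LPS, calls between genotypes went from 289 to 822 without LPS. With LPS they went from 1294 to 3238, so the shares over all tested genes depend on these libraries. The cells carried the markers of type 1 conventional dendritic cells. All 12 listed markers were tested, and they summed to 8895 to 9216 CPM in WT control cells, 8294 to 9489 in KO control cells, 6507 to 8015 in WT LPS cells and 6136 to 7053 in KO LPS cells. In KO against WT with LPS, 1 of the 12 was higher and 6 were lower, beside 5.3% and 5.5% of all tested genes. Among the lower was Xcr1, used to select the cells, at 428 CPM in WT and 281 CPM in KO. Without LPS, Xcr1 was lower in KO too, at 175 CPM in WT and 109 CPM in KO. Monocyte and macrophage markers (14) summed to 1919 to 2025.5 CPM in WT control cells and 2026 to 2299 CPM in KO control cells, which did not overlap. Most of that sum was Lyz2 (1270 CPM in WT control and 1314 CPM in KO control) and Ccr2 (446 and 495 CPM). Among single tested genes, 14.7% did not overlap without LPS. Of the 14 monocyte and macrophage markers, edgeR called 0 between genotypes without LPS, beside 1.89% of all tested genes higher and 0.525% lower. In KO, 4 were higher with only the groups compared in the fit, 3 without the libraries numbered 5 and 7, and 1 without WT LPS replicate 2. With LPS they summed to 1488 to 1939 CPM in WT and 1321 to 2019 CPM in KO, and 0 were higher in KO (1 without WT LPS replicate 2) and 1 lower (3 without KO LPS replicate 2, 2 without WT LPS replicate 3, 0 with only the groups compared). Mast cell and basophil markers (6) summed to 204 to 245 CPM in WT control cells and 257 to 294 CPM in KO control cells, nearly all of it Kit, at 231 and 281 CPM. Kit was higher in KO without LPS (edgeR adjusted p = 0.013), a call that ended when replicate 3 of WT control or replicate 2 of KO control was left out, with total count scaling and on log2(TPM + 1). With LPS it was lower in KO, at 191 and 167 CPM (edgeR adjusted p = 0.023), a call that ended without any 1 of 6 of the 10 LPS libraries. Plasmacytoid markers (8) summed to 86.1 to 91.2 CPM in WT control, 93.7 to 101 CPM in KO control, 475 to 687 CPM in WT LPS and 545 to 600 CPM in KO LPS. Most of that sum was Bst2 and Tcf4 (365 and 149 CPM in WT LPS), while Siglech, a defining marker, was at 3.76 CPM in WT control and 1.23 CPM in WT LPS. Markers of type 2 conventional dendritic cells (9) summed to 176 to 261 CPM in WT LPS and 138 to 190 CPM in KO LPS. Neutrophil markers (10) reached 28.7 CPM in a WT control and 87.1 CPM in a WT LPS library and stayed at or under 2.10 CPM in KO LPS, and lymphocyte markers stayed at or under 6.55 CPM. Their part in the differences above was not tested.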

How the data were processed

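RNA of 18 samples was sequenced as 150-base pairs on the DNBSEQ platform, per the labels' protocols. HISAT, Bowtie2 and the build GRCm39 are named per the submitters' processing notes, and the annotation, counting program and all versions were not given in the sources used here. Per gene and library, the authors deposited 3 values, an estimated count, a TPM and an FPKM, per the file headers. The deposited TPM values are scaled by length and library, as are the deposited FPKM values, which were not tested. Of the estimated counts, 6.37% were not whole (tolerance 0.001), and they were rounded.

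edgeR 4.0.16 (R 4.3.3) kept 11989 genes (minimum count 10, minimum total 15), and a quasi-likelihood model with TMM scaling and a mean per group was fitted to all libraries. A call needed an adjusted p (Benjamini-Hochberg) below 0.05. The biological coefficient of variation was 0.0934. The same steps were tested on simulated data in which few genes changed and rises matched falls, so the choice of scaling with LPS was not covered. Exact permutation tests used log2 CPM with a prior count of 2. The members, the gene lists and the tests were chosen with earlier results of these data known. Named genes are the 5 members, up to 3 called genes with the largest change per pathway list and contrast at 5 CPM or more in a group mean, and the 5 nearest genes to each member; others are said to be named after their values were seen. Alternatives were other scalings and filters, DESeq2 1.42.0, limma 3.58.1 (voom, and log2 TPM with a pseudocount of 1), replicate blocks, only the groups compared, and each library left out. Coordinates come from RefSeq GRCm38.p6 promoter windows only, a build other than that of the files. How reads of near-identical genes were split is unknown. Slc15a1 and Slc15a5 were not analysed here, nor were 3 of the 10 peptidoglycan genes.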

Additional observations from a re-analysis of the deposited data

Results flagged for a closer look

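Slc15a4 in KO LPS replicate 2 stood at 75.7 CPM, and the other libraries of its group lay between 89.5 and 92.8 CPM, a gap large for a group of 5. Of 20 member groups examined 1 had such a library, and chance gives about 1 in 20. The same library was the lowest of its group for Nod2 and the highest for Slc15a2 and Nod1. Irf7, Irak4 and Anpep responded to LPS differently in KO and WT by the interaction term in edgeR. The LPS response in KO minus that in WT was -1.19 ± 0.20 for Irf7 (adjusted p = 0.0018), -0.54 ± 0.08 for Irak4 (3.3e-04) and -0.44 ± 0.10 for Anpep (0.021). Irf7 averaged 9.51 CPM in WT control and 24.3 CPM in KO control, and 2623 and 2925 CPM with LPS. Its mean was thus not lower in KO in either treatment. Irak4 and Anpep were lower in KO with LPS, at 34.1 against 22.9 CPM and 195 against 149 CPM. With limma on log2(TPM + 1), 1 of 27 alternatives, Irak4 and Anpep did not pass (adjusted p = 0.081 and 0.15).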

How the results depend on the processing

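Over 28 alternative settings, all 336 values of the 10 LPS results and the Slc15a2 genotype differences kept their direction, and every LPS response stayed past the threshold. Sizes changed most with limma on log2(TPM + 1), whose pseudocount lies above the WT control level of Slc15a2 and Nod1. Slc15a2 in KO against WT was 1.07 without LPS and 1.94 with LPS there. Its LPS response was 1.86 in WT and 2.73 in KO, and that of Nod1 2.35 and 2.46. The LPS response of Slc15a4 in WT ranged from 0.16 to 0.96 and its highest adjusted p was 0.045. With a replicate block, the LPS response of Slc15a2 was 3.91 in WT and 3.87 in KO, and its genotype differences were 2.27 and 2.22. Not every same-numbered pair of replicates deviated together by over 0.1 (correlations 0.0287 to 0.248 between controls and 0.00923 to 0.353 between LPS groups), and a library correlated best with its own number in 1 of 4 and 1 of 5 cases, so the numbers were not taken as pairs. By library run, all 4 pairs of WT control and WT LPS were over 0.1 (0.14 to 0.273, own run best in 3), while KO control and KO LPS gave -0.0308 to 0.136 and the pairs of genotypes were as above. A replicate block by library run gave 614 calls between genotypes without LPS (289 without the block) and 1915 with LPS (1294). With it, 5 genes of NOD signalling and 4 peptidases were higher in KO with LPS, and the other pathway counts between genotypes stayed within 1.5 times. Without LPS it called 5 monocyte markers higher and 2 neutrophil markers lower in KO. For LPS in WT it called 4 monocyte markers lower (2 without the block) and 2 neutrophil markers higher (0). For Slc15a2, LPS against control in WT gave 3.80 under this block and 3.76 in KO, with genotype differences of 2.26 and 2.22, and no call of a member or named gene ended. Of 140 counts of listed genes, 70 moved by over 1.5 times under some alternative, and the cause was not tested. Depth limits Nod1 and Slc15a2 in WT control, where 14 to 28 counts lie behind each value.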
